A study of Mus musculus with 23 samples.

Results

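The levels of 9 genes expressed in the meninges and by fibroblasts were examined in whole mouse hippocampus. They were picked by name from the 55335 genes of the count table, and all 9 were found. The set holds the fibrillar collagen genes Col1a1, Col1a2 and Col3a1, the small leucine-rich proteoglycan genes Dcn, Lum, Ogn and Fmod, the transporter gene Slc6a13 and the retinoic acid synthesis gene Aldh1a2. Slc6a13 and Aldh1a2 do not encode matrix proteins, and are known as markers of meningeal fibroblasts.

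Poly(A) RNA was sequenced from hippocampi of female mice in 23 libraries, each from a differently numbered animal. WT mice were C57BL/6J x 129S1, and 3xTg mice were an Alzheimer's disease model on a mixed B6;129 background with the transgenes APPSwe and tauP301L, for mutant APP and tau. Both transgenes are driven by the mouse Thy1.2 element, which the authors describe as neuron-specific. Its activity in fibroblasts was not measured here. The effects of the transgenes and of the strain background cannot be told apart. Mice of 8 months had no surgery and no infusion (WT-8M, n = 4, and 3xTg-8M, n = 4). Mice of 10 months all carried a brain cannula and a pump that delivered fluid into the ventricle for 28 days. That fluid was either vehicle, 0.8% DMSO in artificial cerebrospinal fluid (WT-D, n = 4, and 3xTg-D, n = 4), or 80 µM of an inhibitor of stearoyl-CoA desaturase, an enzyme that makes monounsaturated fatty acids, in the same vehicle (WT-S, n = 3, and 3xTg-S, n = 4). The 8-month groups were therefore not set against the 10-month groups, since age, surgery and infusion differed together. Whether the meninges were stripped before freezing was not given in the sources used here.

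The meninges are connective tissue membranes around the brain, and their fibroblasts lay down fibrillar collagen, trimmed and spaced by small proteoglycans that bind to the fibrils. Meningeal fibroblasts also make retinoic acid, with Aldh1a2 as a main enzyme, and carry transporters such as Slc6a13, which takes up GABA and taurine. The hippocampus lies against the pia and the choroid plexus and is crossed by vessels with their own perivascular fibroblasts, so a dissected hippocampus can hold such cells in small numbers. In bulk RNA, fewer cells of a type and less RNA per cell cannot be told apart.

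Depth ran from 12802267 to 36686413 gene counts per library at 8 months and from 12992547 to 17575615 at 10 months. The 10 marker genes of hippocampal neurons were all expressed, with a summed level of 979 to 1242 CPM (counts scaled to library size) across libraries. Of 10 markers of skin, bone, cartilage and muscle, 8 averaged below 1 CPM. Markers of choroid plexus differed in their spread. Ttr, the transthyretin gene, ranged from 1.498 to 325 CPM, whereas Kl ranged only from 22.3 to 37.8 CPM.

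Promoter sequences were read to describe their base composition and short motifs, and their bearing on the levels was not tested. RefSeq's promoter table for GRCm38.p6 held an entry for 6 of the 9 members, and Slc6a13 had 3 entries. Col1a1, Dcn and Lum had none. Each run below holds the 250 bases before a transcript start on the + strand, 5′ to 3′, with capitals for the 4 motifs searched on both strands. These were the CCAAT box with the letters CCAAT, the GC box with the letters GGGCGG, the TATA box with the letters TATAAA and the site of TEAD factors with the letters CATTCC, which reads as GGAATG where the site lies on the other strand. None of the matches in the printed runs overlap each other. The entries shown are Col1a2 at chr6:4505368-4505617, Col3a1 at chr1:45311288-45311537, the first entry of Slc6a13 at chr6:121300038-121300287, and Aldh1a2 at chr9:71215539-71215788.
Col1a2: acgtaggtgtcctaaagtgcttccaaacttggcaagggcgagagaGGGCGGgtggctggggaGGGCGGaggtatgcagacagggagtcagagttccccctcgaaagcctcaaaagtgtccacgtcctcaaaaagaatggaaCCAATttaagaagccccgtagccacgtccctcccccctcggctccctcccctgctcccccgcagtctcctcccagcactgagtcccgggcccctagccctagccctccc
Col3a1: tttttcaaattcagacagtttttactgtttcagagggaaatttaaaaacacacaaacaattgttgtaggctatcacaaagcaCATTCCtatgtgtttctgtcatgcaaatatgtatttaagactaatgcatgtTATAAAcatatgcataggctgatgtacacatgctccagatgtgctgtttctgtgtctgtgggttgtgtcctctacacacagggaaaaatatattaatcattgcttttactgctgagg
Slc6a13: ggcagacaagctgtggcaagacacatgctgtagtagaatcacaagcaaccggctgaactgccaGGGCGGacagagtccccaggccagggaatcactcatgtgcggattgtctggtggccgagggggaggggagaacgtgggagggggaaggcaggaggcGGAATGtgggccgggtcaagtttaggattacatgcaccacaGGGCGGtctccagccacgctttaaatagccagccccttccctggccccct
Aldh1a2: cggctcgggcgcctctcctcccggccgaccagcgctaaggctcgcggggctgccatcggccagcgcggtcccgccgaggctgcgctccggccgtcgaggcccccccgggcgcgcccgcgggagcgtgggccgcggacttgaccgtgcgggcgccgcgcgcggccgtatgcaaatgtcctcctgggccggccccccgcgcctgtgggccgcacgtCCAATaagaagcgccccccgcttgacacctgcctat
GC content was 62% for Col1a2, 35.2% for Col3a1, 60.8% for Slc6a13 and 77.6% for Aldh1a2, against a median of 52.4% over all 32851 promoters of the table. The Col1a2 run held CCAAT, beginning 109 bases before the start, and GGGCGG at 205 and 188 bases. In Col3a1, TATAAA began 117 bases and CATTCC 168 bases before the start. Slc6a13 held GGGCGG at 187 and 50 bases and CATTCC on the other strand at 91 bases. The Aldh1a2 run held CCAAT at 36 bases and none of the other motifs. These are common letters: CCAAT occurred in 33.8%, GGGCGG in 32.7%, TATAAA in 12.4% and CATTCC in 12.6% of all promoters of this length. Of the entries not printed, Ogn (42% GC) held TATAAA and CATTCC and the second Slc6a13 entry (51.6%) held CCAAT. Fmod (51.2%) and the third Slc6a13 entry (49.6%) held none of the 4. No motif was therefore shared by all members with an entry.

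Levels of different genes were compared per transcript length, as RPKM (read counts scaled by transcript length and library size). Dcn, the decorin gene, stood far above the rest with 46.8 ± 15.1 RPKM (SD, n = 23). Ogn, which encodes osteoglycin, followed with 6.61 ± 2.24 RPKM. Lum, the lumican gene, had 3.88 ± 0.891 RPKM. Each of the first pair of steps held in 23 of 23 libraries, whereas Lum lay above Aldh1a2 in only 14. The next 4 members were close to each other, with Aldh1a2 at 3.56 ± 2.36, Fmod (fibromodulin) at 3.18 ± 2.38, Slc6a13 at 3.07 ± 1.89 and Col1a2 at 1.94 ± 1.16 RPKM. Aldh1a2 lay above Fmod in 18 libraries, Fmod above Slc6a13 in 10 and Slc6a13 above Col1a2 in 19. The order from Lum to Slc6a13 thus changed between libraries, and it was not tested. The fibrillar collagens were the lowest of the set. Col1a1 had 0.790 ± 0.418 RPKM and was below Col1a2, the other chain gene of type I collagen, in 23 of 23 libraries. Col3a1, the type III collagen gene, had 0.564 ± 0.401 RPKM and was below Col1a1 in 23 of 23.

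These levels rest on few reads for most members. The median count per library was 47 for Col3a1, 65 for Col1a1, 113 for Slc6a13, 130 for Aldh1a2, 148 for Lum, 152 for both Col1a2 and Fmod, 266 for Ogn and 1247 for Dcn. The smallest single counts were 12 for Col3a1 and 20 for Aldh1a2. Col1a2, Col3a1, Ogn, Slc6a13 and Aldh1a2 overlap other annotated genes, of which Cenpp (Ogn), Gm24855 (Slc6a13) and Gm48124 (Aldh1a2) lie on the opposite strand. These overlaps are of whole gene spans, and shared exons were not looked for. The strand setting of the counting was not given in the sources used here. Whether reads of Cenpp entered the Ogn counts was not tested.

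All 9 genes lie on the + strand of GRCm38. The collagen genes are on chromosomes 11 (Col1a1, 94936224 to 94953042), 6 (Col1a2, 4504814 to 4541544) and 1 (Col3a1, 45311538 to 45349706). Dcn (97479609 to 97518143) and Lum (97565128 to 97572703) are neighbours on chromosome 10, with 46984 bases between them. Ogn is on chromosome 13 (49608046 to 49624501), Fmod on chromosome 1 (134037254 to 134048277), Slc6a13 on chromosome 6 (121300227 to 121337733) and Aldh1a2 on chromosome 9 (71215789 to 71296243).

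Among the collagen genes, Col1a2 was read most deeply. It measured 6.75, 10.9, 5.63 and 4.52 CPM in the WT-8M libraries (replicates 1 to 4) and 3.27, 24.7, 3.75 and 13.2 CPM in 3xTg-8M. In the vehicle groups it measured 9.14, 7.21, 3.53 and 13.5 CPM in WT-D and 7.15, 12.4, 9.45 and 9.33 CPM in 3xTg-D. With the inhibitor it measured 11.5, 19.5 and 5.25 CPM in WT-S and 24.6, 12.5, 4.63 and 16.2 CPM in 3xTg-S. The 3xTg-8M libraries alone spanned 7.55-fold, from below the lowest WT-8M library to above the highest, and replicate 2 held the highest level of the whole series. The 3xTg-D group was the tightest, at 9.58 ± 2.15 CPM (SD, n = 4). Col1a1 ran from 1.87 CPM in WT-D replicate 3 to 10.2 CPM in 3xTg-S replicate 1. Its group means lay between 3.86 ± 1.46 CPM in 3xTg-D and 6.13 ± 3.27 CPM in 3xTg-S (SD, n = 4 each). Col3a1 ran from 0.734 CPM in 3xTg-8M replicate 1 to 9.16 CPM in replicate 2 of the same group.

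Of the proteoglycan genes, Fmod was the most variable and Lum the steadiest. Fmod measured 7.33, 10.9, 3.301 and 5.32 CPM in WT-8M and 1.31, 29.6, 1.88 and 12.98 CPM in 3xTg-8M. It measured 8.56, 3.94, 3.00 and 17.4 CPM in WT-D and 5.56, 12.6, 16.2 and 4.81 CPM in 3xTg-D. With the inhibitor, 9.53, 22.5 and 5.75 CPM were found in WT-S and 21.2, 10.8, 1.62 and 11.9 CPM in 3xTg-S. Within 3xTg-8M the highest Fmod level was 22.5 times the lowest, and within 3xTg-S 13.1 times, with all groups overlapping. Lum stayed between 5.25 and 14.4 CPM over all 23 libraries. Its group means went from 7.79 ± 2.78 CPM in 3xTg-8M to 11.1 ± 2.62 CPM in 3xTg-S (SD, n = 4 each). Ogn ran from 8.71 CPM in 3xTg-8M replicate 3 to 29.0 CPM in WT-S replicate 2.

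Dcn had a pattern of its own. It measured 148, 74.8, 84.6 and 69.5 CPM in WT-8M and 59.5, 82.6, 103 and 118 CPM in 3xTg-8M. In the vehicle groups it measured 65.4, 83.3, 54.8 and 67.8 CPM in WT-D and 105, 99.02, 70.1 and 42.5 CPM in 3xTg-D. With the inhibitor it measured 110, 82.5 and 63.7 CPM in WT-S and 89.8, 95.3, 24.6 and 96.6 CPM in 3xTg-S. The highest Dcn level of the series was in WT-8M replicate 1, where Col1a2 was at 6.75 CPM, and in 3xTg-8M replicate 2, where 8 members peaked in their group, Dcn was the second lowest of 4. In 3xTg-S replicate 3, Dcn was at its lowest together with the other 8 members.

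The markers of meningeal fibroblasts that are not matrix genes varied widely too, though less than Fmod. Slc6a13 measured 7.22, 12.3, 5.25 and 5.18 CPM in WT-8M and 0.948, 15.9, 1.95 and 7.60 CPM in 3xTg-8M. It measured 6.58, 3.67, 2.53 and 9.19 CPM in WT-D and 3.76, 8.32, 8.62 and 3.46 CPM in 3xTg-D. In the inhibitor groups the values were 9.76, 13.8 and 2.20 CPM for WT-S and 14.0, 7.99, 1.76 and 6.08 CPM for 3xTg-S. The 3xTg-8M libraries thus held both the lowest and the highest Slc6a13 level of the series, 16.7-fold apart.

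Aldh1a2 measured 6.39, 10.1, 3.90 and 4.00 CPM in WT-8M and 1.41, 14.8, 1.58 and 10.5 CPM in 3xTg-8M. In the vehicle groups it measured 5.76, 3.94, 1.33 and 7.96 CPM in WT-D and 4.62, 10.9, 16.1 and 6.93 CPM in 3xTg-D. With the inhibitor it measured 10.2, 18.04 and 3.69 CPM in WT-S and 18.8, 12.0, 2.06 and 10.1 CPM in 3xTg-S. WT-D had the lowest mean of the 10-month groups, 4.75 ± 2.81 CPM (SD, n = 4), against 9.65 ± 5.03 in 3xTg-D (n = 4), 10.6 ± 7.19 in WT-S (n = 3) and 10.8 ± 6.88 in 3xTg-S (n = 4). Even so, the WT-D range of 1.33 to 7.96 CPM overlapped with each of the other groups.

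**Figure D1:**
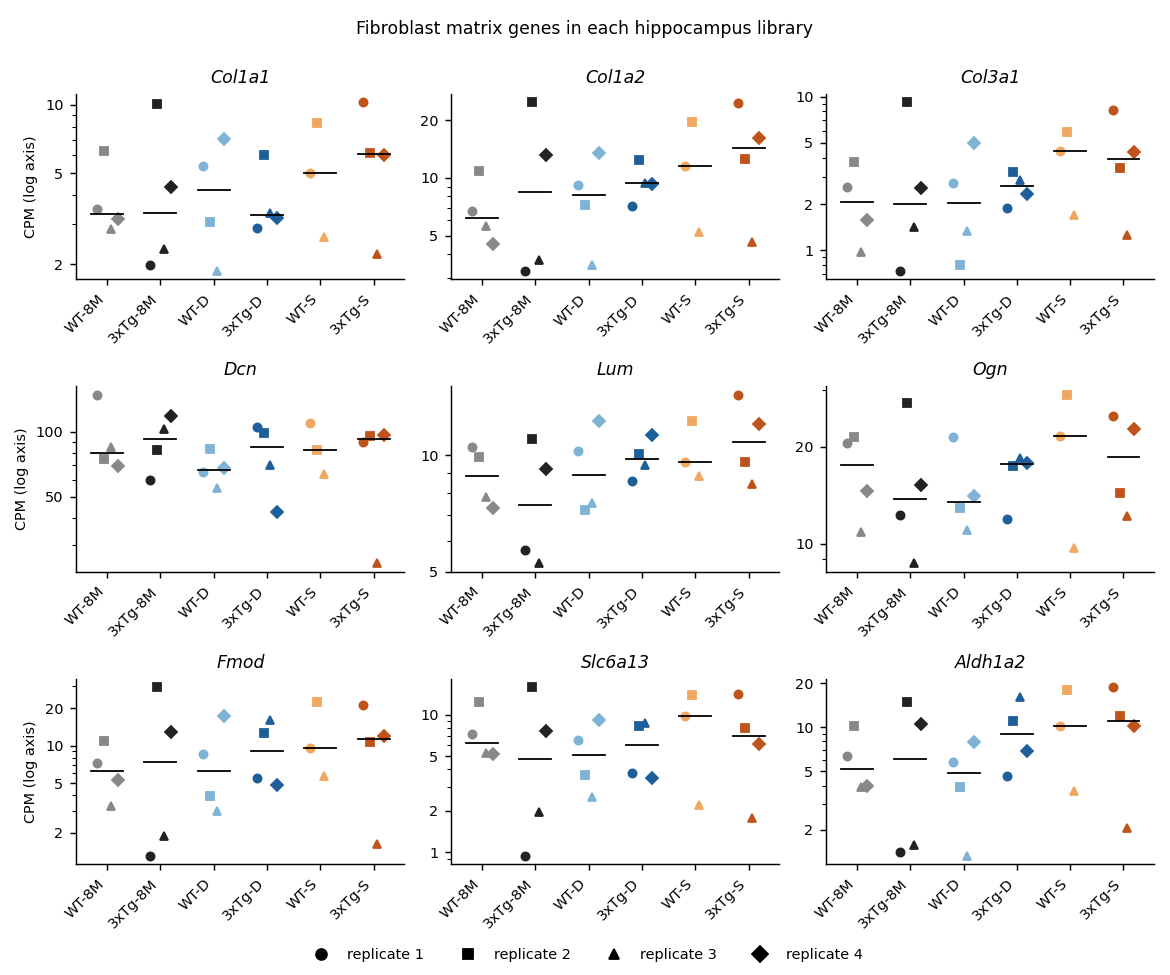
Level of each of the 9 genes in CPM (log axis) in every library, by group; points are libraries and shapes give the replicate and short lines the group medians. In each panel the points of all 6 groups overlap, and for Fmod in 3xTg-8M they span 22.5-fold.

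Library by library, 8 of the 9 genes largely went up and down together inside their groups, though less clearly in 3xTg-D. In 3xTg-8M, replicate 2 was the highest of its group for 8 of 9 members, with a mean deviation from the group means of 1.38 on the log2 scale. The same held for 3xTg-S replicate 1 (8 of 9, mean deviation 0.90) and WT-S replicate 2 (8 of 9, 0.71). In WT-D, replicate 4 was highest for 7 of 9, and in WT-8M replicate 2 for 7 of 9. The highest library was split in 3xTg-D, with replicate 3 highest for 4 of 9 and replicate 2 for 3 of 9. Replicate 4 of 3xTg-D had deviations of 0.20 for Lum and 0.14 for Ogn, but -0.82 for Fmod and -0.66 for Slc6a13. At the other end, 3xTg-S replicate 3 was the lowest of its group for all 9 members, with a mean deviation of -1.37. WT-S replicate 3 was also lowest for 9 of 9 (-0.89), and 3xTg-8M replicate 1 for 7 of 9 (-1.15). With Dcn left out, the summed level of the other 8 genes ran from 26.9 to 142 CPM in 3xTg-8M and from 34.2 to 136 CPM in 3xTg-S. High and low libraries thus occurred in both strains and under both treatments.

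**Figure D2:**
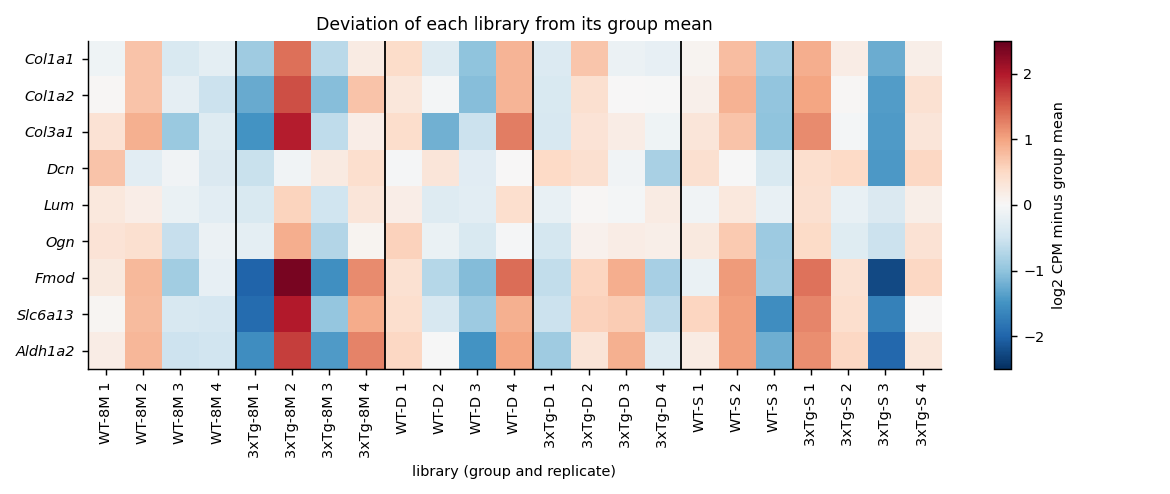
Deviation of log2 CPM from the group mean for each gene (vertical axis) in each of the 23 libraries (horizontal axis), as colours. Columns of one colour show the libraries in which the members were high or low together, such as 3xTg-8M replicate 2 (mean deviation 1.38) and 3xTg-S replicate 3 (-1.37).

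This spread was wide against that of other genes. The within-group SD of log2 CPM was 1.33 for Fmod, 1.18 for Aldh1a2, 1.14 for Slc6a13, 1.01 for Col3a1, 0.899 for Col1a2 and 0.781 for Col1a1, above that of 99.05% (Col1a1) to 99.8% (Fmod) of 14622 expressed genes. It was 0.577 for Dcn, 0.533 for Ogn and 0.335 for Lum, against a median of 0.139 over the expressed genes. Lum, the steadiest of the 9, still varied more than 90.1% of them. Counting error adds to the spread of members with few reads, and its part was not tested.

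Correlations of log2 CPM, centred on the group means, describe the same pattern over 23 libraries, which share 1 tissue and 1 protocol and differ in depth, so no p is given. Against the mean of the other 8 members, Pearson's r was 0.972 for Slc6a13, 0.971 for Col1a2, 0.967 for Fmod, 0.963 for Aldh1a2, 0.954 for Col1a1 and 0.923 for Col3a1. Lum and Ogn had r of 0.871 and 0.810. Dcn had 0.457. Without the libraries farthest from the median, 3xTg-S replicate 3 and 3xTg-8M replicate 1, Dcn fell to 0.0747 (n = 21), while the other 8 stayed between 0.850 and 0.964. The 28 pairs of members that leave out Dcn had r of 0.765 to 0.963, the closest being Col1a1 and Col1a2, the paired chains of type I collagen. The 8 pairs with Dcn had r of 0.257 to 0.505.

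Dcn and Lum are neighbours in the genome, and their products are related proteoglycans, yet their r was only 0.268 and the SD of their log2 ratio was 0.584. Between Col1a1 and Col1a2, which lie on different chromosomes, the SD of the log2 ratio was 0.258. The size of the swing differed too. For each unit of log2 change in the mean of the other members (Dcn left out), Fmod changed by 1.60, Aldh1a2 by 1.37, Slc6a13 by 1.33, Col3a1 by 1.11, Col1a2 by 1.02 and Col1a1 by 0.850, but Ogn by 0.475, Lum by 0.314 and Dcn by 0.305. Dcn thus varied apart from the other 8 genes, while Lum, with a slope close to that of Dcn, had the r of 0.871 given above. Which cells the RNA came from was not tested.

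The 10 other genes whose centred levels were most like the mean of the members were picked by correlation, and 9 of them are named here. They were Slc6a20a (r = 0.977), a proline transporter gene, Slc13a4 (0.973), a sulfate transporter gene, Cped1 (0.966), Slc22a6 (0.963), an organic anion transporter gene, Crabp2 (0.961), a carrier of retinoic acid, Tagln (0.953), a smooth muscle gene, Col13a1 (0.951), a transmembrane collagen gene, Crispld2 (0.944) and Pcolce (0.943), an enhancer of procollagen cleavage. Slc6a20a ran from 4.95 to 26.2 CPM and Slc13a4 from 1.31 to 25.8 CPM over the libraries. Of these 10 genes, 8 were still among the 10 most like without the farthest library. In all, 36 of 14613 expressed genes had r over 0.9 and 178 had r over 0.7.

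**Figure D3:**
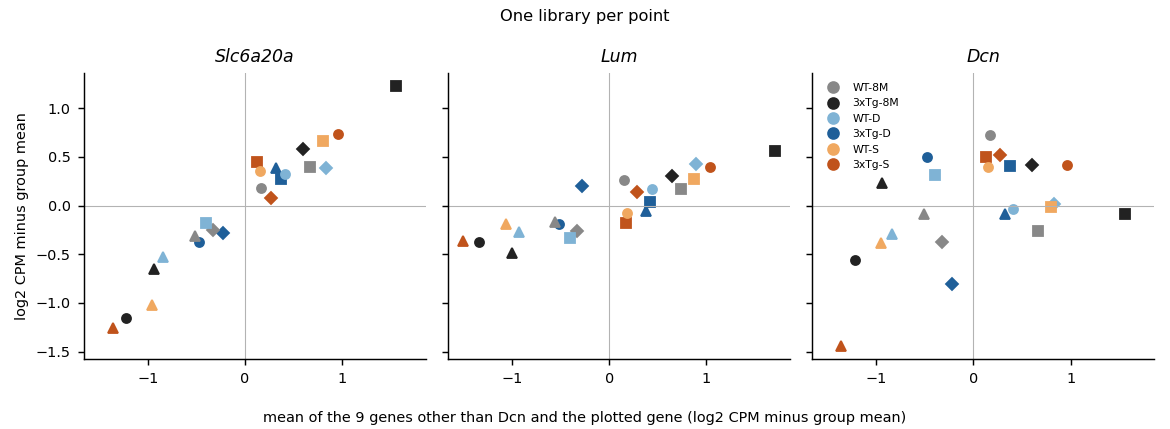
Group-centred log2 CPM of Slc6a20a, Lum and Dcn (vertical axes) against the mean of the members other than Dcn and the plotted gene (horizontal axis), 1 point per library (n = 23), coloured by group and shaped by replicate. Slc6a20a lies along a line, Lum along a flatter one (slope 0.314) and Dcn is scattered, with 3xTg-S replicate 3 at the lower left.

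For Dcn alone, chosen after its apartness was seen, the nearest genes were others: Dlk1 (r = 0.879), Rab38 (0.863), Tacr3 (0.857), which encodes a neurokinin receptor, Dennd3 (0.854) and C1qtnf7 (0.852). Of these, C1qtnf7 also had r of 0.666 with the mean of the other 8 members, and the other 4 had 0.258 to 0.398. Next in order came Htr2c (0.843), which encodes a serotonin receptor, Kif26a (0.842), Glra2 (0.842), which encodes a glycine receptor subunit, Cdc14b (0.840) and Rspo2 (0.837). None of the genes named here as near to Dcn was in the meningeal and fibroblast list or in any other list followed. No gene reached 0.9 with Dcn and 96 of 14621 passed 0.7, against 182 for the mean of the other 8 members.

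Marker lists of other cell types were followed in the same libraries. Of 54 other meningeal and fibroblast genes, 43 averaged at least 1 CPM, and their median r with the members was 0.819, with 26 over 0.7. Ptgds (0.935), which makes prostaglandin D2, Mgp (0.934) and Gjb2 (0.942), a gap junction gene, were among them. Ptgds ran from 89.4 to 954 CPM. The list was not uniform, since Col5a2 (-0.064), Sparc (0.055) and Lama2 (0.069) did not follow the members.

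Border-associated macrophage markers, of cells that live in the meninges and around vessels, had a median r of 0.810, and all 5 that averaged at least 1 CPM were over 0.7, such as Mrc1 (0.872) and F13a1 (0.900). Their summed level ran from 8.44 to 38.7 CPM. Among mural cell markers the median was 0.660, and 5 of 10 were over 0.7. These were the smooth muscle genes Tagln (0.953), Myh11 (0.928), Myl9 (0.912) and Acta2 (0.894), and Vtn (0.936), which is known from pericytes. The other 5, among them the pericyte genes Rgs5 (-0.027) and Pdgfrb (0.425), had r of -0.141 to 0.425.

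Choroid plexus markers had a median r of 0.517 (1 of 7 over 0.7, Kcnj13), and endothelial markers 0.491 (1 of 12, Pecam1). Blood (0.069), ependyma (-0.153) and hippocampal neurons (-0.236) had no gene over 0.7. Summed levels ran from 37.7 to 394.5 CPM for choroid plexus, 242 to 411 for mural cells, 318 to 402 for endothelium and 4.79 to 208 for blood. No marker of any list was at 0 in every library. The part of these cells in the members' levels was not tested.

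**Figure D4:**
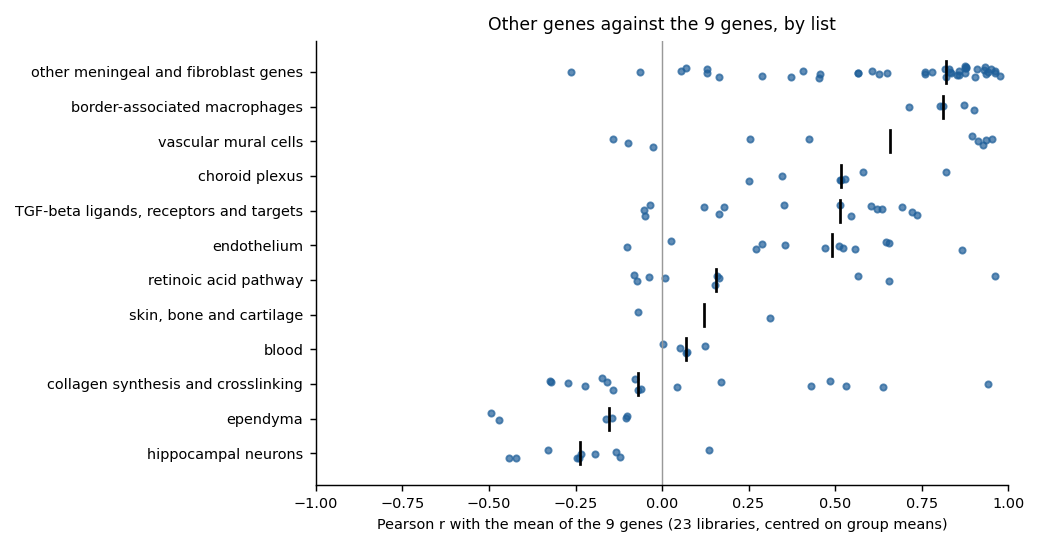
Pearson's r (horizontal axis) between each listed gene and the mean of the members, over 23 libraries, by list; points are genes averaging at least 1 CPM and lines are medians. Other meningeal genes (median 0.819) and border-associated macrophage markers (0.810) lie to the right, and hippocampal neuron markers (-0.236) to the left.

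The first comparison asked how 3xTg mice differ from WT mice at 8 months, before any surgery. None of the 9 members was called at an adjusted p under 0.05 by edgeR's quasi-likelihood test, against 2.58% of all 15483 genes tested. By DESeq2's likelihood ratio test 0 members were called too. Log2 fold changes ran from -0.24 (SE 0.65) for Slc6a13 to 0.72 (SE 0.76) for Fmod, and the collagen genes had 0.22 (SE 0.46, Col1a1), 0.67 (SE 0.55, Col1a2) and 0.56 (SE 0.66, Col3a1). The median over the members was 0.17, against 0.0060 over all genes, with 5 of 9 above 0. No member had an unadjusted p under 0.05 (17.4% of all genes did), and none had groups without overlap (11.2% of all genes). Without 3xTg-8M replicate 2, the library with the highest levels, Slc6a13 had a log2 fold change of -1.17 and Fmod of -0.38. Without replicate 1, a low library, they had 0.20 and 1.14.

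At 10 months, 3xTg-D against WT-D asked the same question in mice infused with vehicle. Again 0 of 9 members were called by either tool, against 1.39% of 15528 genes by edgeR. Aldh1a2 had the one unadjusted p under 0.05 among the members (13.1% of all genes), with 9.65 against 4.75 CPM, a log2 fold change of 1.02 (SE 0.43, unadjusted p = 0.0374, adjusted p = 0.343). It was called only when genes with low counts were kept in the edgeR fit (log2 fold change 1.02, adjusted p = 0.00726), a fit that called 792 genes instead of 216. The other 8 members had log2 fold changes of -0.18 (SE 0.36, Col1a1) to 0.25 (SE 0.50, Fmod). For Dcn the value was 0.22 (SE 0.22). The median over the members was 0.14 against -0.0029 over all genes. No member had groups without overlap, against 7.97% of genes. Border-associated macrophage markers stood beside Aldh1a2, with a median log2 fold change of 0.66, 5 of 5 above 0 and 0 called. Choroid plexus markers had a median of 0.31 (6 of 6 above 0, 0 called), and Ttr among them had 2.66 (SE 0.66, adjusted p = 0.0806).

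What the inhibitor does in 3xTg mice was asked by 3xTg-S against 3xTg-D. The collagen genes had the largest values of the set, 0.76 (SE 0.40) for Col3a1, 0.68 (SE 0.36) for Col1a1 and 0.61 (SE 0.35) for Col1a2, with adjusted p of 0.494, 0.494 and 0.519. Slc6a13 had 0.31 (SE 0.45), Fmod 0.22 (SE 0.51), Aldh1a2 0.16 (SE 0.47) and Dcn -0.043 (SE 0.35). So 8 of 9 were above 0, with a median of 0.22 against -0.0021 over all genes, and none passed the test. edgeR called 0 of all 15530 genes here (0%), 1733 had an unadjusted p under 0.05 (11.2%, 0 of the members), and DESeq2 called 14, none of them a member. Groups without overlap occurred in 6.85% of genes and 0 members. Among markers of other cells, the median was 1.22 for blood (5 of 5 above 0) and 0.40 for mural cells (10 of 11). It was 0.13 for endothelium (11 of 12) and -0.058 for choroid plexus (4 of 8), with 0 called in each list. Col1a2 had a log2 fold change of 0.22 without 3xTg-S replicate 1, a high library, and of 0.90 without replicate 3, a low one.

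In WT mice, WT-S against WT-D, all 9 members were above 0. Aldh1a2 had 1.15 (SE 0.53), Col3a1 0.67 (SE 0.54), Slc6a13 0.63 (SE 0.53), Fmod 0.60 (SE 0.57), Col1a2 0.52 (SE 0.44), Ogn 0.43 (SE 0.32), Dcn 0.33 (SE 0.17), Col1a1 0.28 (SE 0.44) and Lum 0.14 (SE 0.20). The median was 0.52 against 0.0017 over all genes. Their adjusted p by edgeR were all between 0.981 and 0.983, and edgeR called 0 of 15724 genes (0%), as did DESeq2. An unadjusted p under 0.05 occurred in 538 genes (3.42%) and in 0 members, and groups without overlap in 4.9% of genes and 0 members. The WT-S group held 3 libraries, of which replicate 3 was the lowest of the group for all 9 members. Choroid plexus markers also had their largest median here, 1.25 over 7 genes with 0 called, and Ttr had 3.88 (SE 1.17, adjusted p = 0.981). Their summed level was 41.9, 51.4 and 392.9 CPM in the 3 WT-S libraries, against 42.5 to 51.5 CPM in WT-D, so 1 library held the high value. Leaving out 1 library at a time moved Aldh1a2 to between 0.52 and 1.57, Col3a1 to between 0.28 and 1.27 and Slc6a13 to between 0.096 and 1.10.

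The last of the planned pairs set 3xTg-S against both WT groups. Against WT-D, all 9 members were above 0, with a median of 0.47 (all genes 0.0045), and 0 were called, against 2.29% of 15567 genes. Aldh1a2 had 1.18 (SE 0.51, unadjusted p = 0.0377, adjusted p = 0.266), the 1 member with an unadjusted p under 0.05 (16.9% of all genes). Col1a2 had 0.80 (SE 0.41, adjusted p = 0.349) and Col3a1 0.80 (SE 0.52, adjusted p = 0.462). Keeping genes with low counts in the fit brought Aldh1a2 (1.17, adjusted p = 3.65e-05) and Col1a2 (0.79, adjusted p = 0.00125) under the threshold, and called 1135 genes instead of 356. Leaving out 3xTg-S replicate 3 gave Dcn 0.47 (adjusted p = 0.0474) instead of 0.18 (SE 0.30, adjusted p = 0.806). Groups without overlap occurred in 10.5% of genes and 0 members. Markers of other cells had values above 0 beside the members, with a median of 0.73 for border-associated macrophages (6 of 6 above 0, 0 called), 1.81 for blood (5 of 5, 1 called) and 0.50 for mural cells (8 of 11, 0 called). For choroid plexus the median was only 0.19 (5 of 6, 0 called), though Ttr had 2.93 (SE 1.14, adjusted p = 0.217). The summed choroid plexus level had a median of 46.9 CPM in 3xTg-S (41.1 to 265.4) and of 48.7 CPM in WT-D. The part of these cells in the members' values was not tested.

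Against WT-S, the members were spread around 0, from -0.18 (SE 0.56, Slc6a13) to 0.28 (SE 0.46, Col1a2), with a median of 0.034 (all genes 0.0037) and 5 of 9 above 0. None was called by either tool, against 1.32% of 15664 genes by edgeR, none had an unadjusted p under 0.05 (10.6%) and none had groups without overlap (10.9%). These comparisons share control and treated groups, so their values are not independent of each other. The members other than Dcn also moved together from library to library. In every comparison, the count of members above 0 is therefore not a count of independent results.

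Whether the inhibitor acted differently in both strains was tested by an interaction term over the 15 libraries of 10 months. The term was -0.99 (SE 0.80) for Aldh1a2, 0.40 (SE 0.63) for Col1a1, -0.38 (SE 0.87) for Fmod and -0.37 (SE 0.47) for Dcn, with a median of -0.25 over the members and 0.0021 over all genes. The term was called in 0 members and in 0 of 16262 genes (0%) by edgeR and by DESeq2. An unadjusted p under 0.05 occurred in 377 genes (2.32%) and in 0 members. For Aldh1a2, the inhibitor against the vehicle gave 1.15 in WT and 0.16 in 3xTg mice, and the difference did not pass the test (unadjusted p = 0.235).

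**Figure D5:**
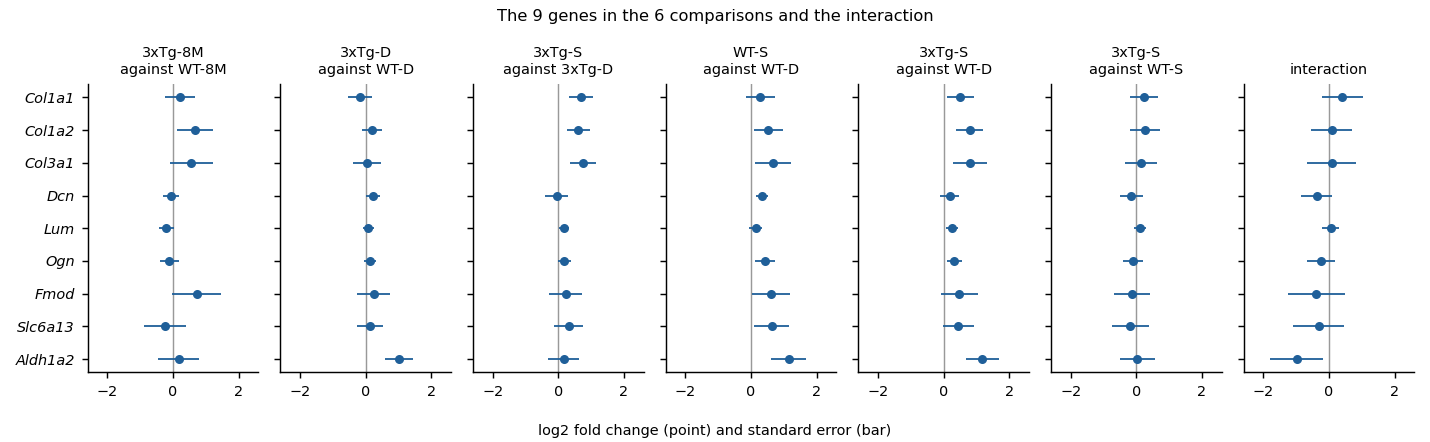
Log2 fold change (horizontal axis) with its standard error (bars) for each of the 9 genes in the 6 comparisons and the interaction, by edgeR's quasi-likelihood fit. The largest fold changes are those of Aldh1a2 (1.18, 1.15 and 1.02), and none passed the adjusted test.

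Most genes that build and finish collagen did not follow the members from library to library. Of 19 such genes, 17 averaged at least 1 CPM, and their median r with the members was -0.069, with Pcolce alone over 0.7. The others ran from -0.325 (Bmp1) to 0.639 (Serpinh1). Plod3, a lysyl hydroxylase gene, rose in 3xTg-8M against WT-8M (0.47, SE 0.078, adjusted p = 0.00670, 1 of 17 tested called). Serpinh1, the collagen chaperone gene, rose in 3xTg-S against WT-D (0.79, SE 0.13, adjusted p = 0.00560, 1 of 17 called). In the mice without infusion, 3xTg-8M against WT-8M, Serpinh1 had a larger value that was not called (0.92, SE 0.25, adjusted p = 0.0802). In WT-S against WT-D it had 0.27 (SE 0.15, adjusted p = 0.981). Its log2 fold change was 0.44 (SE 0.12, adjusted p = 0.106) in 3xTg-D against WT-D, 0.34 (SE 0.13, 0.396) in 3xTg-S against 3xTg-D and 0.52 (SE 0.16, 0.198) in 3xTg-S against WT-S. In these 3 pairs 0 of 17, 18 and 18 genes were called, and next to it stood Plod1 (0.29), Plod2 (0.29) and P4ha3 (-0.71). In WT-S against WT-D, 0 of 18 were called, with Loxl3 (0.42) and Pcolce (0.81) of smallest unadjusted p, and the interaction had 0 of 18, with Plod2 (0.30) and Loxl3 (-0.33).

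The retinoic acid pathway list, without Aldh1a2, had 1 gene that changed repeatedly. Aldh1a1, which encodes another retinaldehyde dehydrogenase, fell in 3xTg-8M against WT-8M (-0.59, SE 0.095, adjusted p = 0.00615) and in 3xTg-D against WT-D (-0.61, SE 0.091, adjusted p = 0.00443). It also fell in 3xTg-S against WT-D (-0.33, SE 0.069, adjusted p = 0.0265) and against WT-S (-0.37, SE 0.074, adjusted p = 0.0309). In each of these it was the only gene called, of 12, 11, 12 and 12 tested. In 3xTg-S against 3xTg-D Aldh1a1 had 0.27 (SE 0.089, adjusted p = 0.378), and 0 of 11 genes were called, with Cyp26b1 (0.28), a retinoic acid degrading enzyme gene, next by unadjusted p. In WT-S against WT-D 0 of 11 were called, with Rara (-0.28) and Rarb (0.31), both receptor genes, of smallest unadjusted p. The interaction had 0 of 12, with Aldh1a1 (0.23) and Cyp26b1 (0.37). Aldh1a1 and Aldh1a2 thus had values of opposite sign in 3xTg-D against WT-D, of which only that of Aldh1a1 passed the test.

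No gene of the TGF-beta list, which holds ligands, receptors and targets of a pathway known to drive collagen expression, was called in any comparison (0 of 15 tested at 8 months and 0 of 16 in each of the others). The smallest unadjusted p at 8 months were those of Skil (-0.14) and Postn (0.59). Tgfbi had 0.72 (SE 0.24, adjusted p = 0.216) in 3xTg-D against WT-D, with Ltbp1 (-0.26) next, and 0.49 (SE 0.17, adjusted p = 0.164) in 3xTg-S against WT-D, behind Eng (0.33). Skil (-0.15) and Eng (0.18) led in 3xTg-S against 3xTg-D, Postn (0.66) and Ltbp4 (-0.20) in 3xTg-S against WT-S, Ltbp4 (0.20) and Postn (-0.39) in WT-S against WT-D, and Tgfb3 (-0.29) was among those of the interaction.

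Among the other meningeal and fibroblast genes, Col12a1 rose in 3xTg-S against WT-S (0.68, SE 0.13, adjusted p = 0.0275), the only 1 of 50 tested that was called. In all other comparisons and the interaction 0 of 44 to 51 tested were called. Their median log2 fold changes were 0.13 in 3xTg-8M against WT-8M, 0.18 in 3xTg-D against WT-D, 0.13 in 3xTg-S against 3xTg-D, 0.31 in WT-S against WT-D, 0.28 in 3xTg-S against WT-D and -0.058 in 3xTg-S against WT-S, and in the interaction -0.24. The genes of smallest unadjusted p were Col6a3 (0.91) and Zic1 (0.90) at 8 months, Prelp (0.31) and Col12a1 (0.55) in 3xTg-D against WT-D and Igfbp2 (0.42) and Slc13a3 (0.41) in 3xTg-S against 3xTg-D. Mgp (0.93) and Aspn (-0.86) were those of WT-S against WT-D, Prelp (0.26) and Mgp (0.97) of 3xTg-S against WT-D, and Aspn (1.08) and Prelp (-0.25) of the interaction.

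The expressed genes with r over 0.7 with the mean of the members were counted next, a set that included 8 of the members themselves. Of these, 1 of 186 was called at 8 months, against 366 of all 14602. It was Pdgfd, a growth factor gene (-0.59, SE 0.13, adjusted p = 0.0368). In 3xTg-S against WT-D 4 of 184 were called, against 342 of all 14613, so that their share was close to that of all genes. They were Spp1 (1.69, SE 0.16, adjusted p = 5.93e-05), the osteopontin gene, Myoc (1.08), Gpx8 (0.81) and Anxa2 (0.64). In 3xTg-D against WT-D 0 of 184 were called (196 of all 14606) and in 3xTg-S against WT-S 0 of 186 (189 of all 14615), and in the other comparisons no gene at all was called. All 5 names were chosen after their values were seen.

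Of the marker lists of other cell types, no mural, endothelial, choroid plexus, ependymal or border-associated macrophage gene and no gene of skin, bone or cartilage was called in any comparison. Among blood genes, Hbb-bt, a haemoglobin gene, rose in 3xTg-S against WT-D (2.45, SE 0.56, adjusted p = 0.0432). Hippocampal neuron markers were called in all 4 comparisons of 3xTg with WT mice, with C1ql2, a dentate gyrus gene, lower each time, with log2 fold changes of -1.45 to -1.04. The others called were Spink8 (1.52) at 8 months, Iyd (1.37) in 3xTg-D against WT-D, Wfs1 (-0.54) and Iyd (1.57) in 3xTg-S against WT-D, and Wfs1 (-0.50) in 3xTg-S against WT-S. None of these markers had r over 0.7 with the members.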

How the data were processed

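Hippocampal RNA of 23 mice was sequenced by the authors, who used Trimmomatic 0.35 for trimming and STAR 2.5.1b for alignment to GRCm38 with the Gencode M23 annotation. The authors deposited raw counts per gene, which were used as they stood. Their 4 lines naming no gene (24.7 to 30.9% of reads) entered neither library sizes nor tests. Counts were converted here to CPM with TMM factors over 23 libraries and to RPKM by the length of the coding transcript (Gencode M21, where 99.7% of genes were found).

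Each comparison was fitted on its own groups with edgeR 4.0.16 in R 4.3.3 (filterByExpr, TMM, quasi-likelihood test, two-sided), with Benjamini-Hochberg adjustment over all genes tested and calls at an adjusted p under 0.05. The interaction was fitted on the 15 libraries of 10 months. Scripts were tested on simulated data. Correlations used log2 CPM with a prior count of 2, less the group mean. Animal numbers mark separate mice. The precision of each library's value is limited by its count, and that of each fold change also by the few mice per group and their spread. Alternatives were DESeq2 1.42.0 (likelihood ratio test, size factors), no filter on low counts, 1 joint fit, a replicate block, each library left out, a prior count of 0.5, and, chosen after seeing the data, correlations without the 2 farthest libraries.

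The 9 members and the gene lists were chosen with earlier results of these data known. Named genes are the members, the called genes of each list (at most 6) or else the 2 of smallest unadjusted p, and the 10 genes most like the members. For marker lists of other cell types the called genes are named, and any other marker named was chosen after its values were seen, as were further names where the text says so. Some items of the strain description and of the gene lists are not reported here.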

Additional observations from a re-analysis of the deposited data

Results flagged for a closer look

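In 3 of 45 sets of 4 libraries (9 genes in the 5 groups of 4), 1 library lay far from the other 3, with a gap to the nearest, as a share of the range, above Dixon's critical value. Chance gives this in about 1 in 20 sets. Col1a1 in 3xTg-D replicate 2 was at 6.025 CPM (ratio 0.853), above the other 3 libraries. Dcn in 3xTg-S replicate 3 was at 24.61 CPM (0.905), below the others, in a library that was the lowest of its group for all 9 members. Ogn in 3xTg-D replicate 1 was at 11.92 CPM (0.845), again below the others.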

How the results depend on the processing

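The members' levels stayed within 1 SD of each group mean under 2 other scalings (54 of 54 each). This limit is loose where the SD is wide, as for Fmod in 3xTg-8M (11.45 ± 13.25 CPM). No member's fold change changed sign with DESeq2's test, DESeq2's size factors or no filter on low counts (0 of 63 each) or with 1 fit of all 15 libraries of 10 months (0 of 45). Without the filter, genes called were 854 in 3xTg-8M against WT-8M, 792 in 3xTg-D against WT-D, 112 in 3xTg-S against 3xTg-D, 2 in WT-S against WT-D, 1135 in 3xTg-S against WT-D, 729 in 3xTg-S against WT-S and 8 in the interaction, and members called were 1 in 3xTg-D against WT-D (Aldh1a2) and 2 in 3xTg-S against WT-D (Aldh1a2 and Col1a2). DESeq2's test called 684 genes in 3xTg-8M against WT-8M, 3.9e+02 (to 2 significant digits) in 3xTg-D against WT-D, 14 in 3xTg-S against 3xTg-D and 577 in 3xTg-S against WT-D, and the joint fit 355 in 3xTg-D against WT-D. The cause of these shifts was not tested.

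Runs of consecutive animal numbers were tried as a replicate block. Libraries of 1 run in different groups did not deviate together (median r 0.0124, from -0.218 to 0.190 over 21 pairs), so the runs were not taken to pair the samples. Under the replicate block 78 genes were called in 3xTg-S against WT-S, and 1 member, Aldh1a2, in 3xTg-S against WT-D (1.14, adjusted p = 0.0260). The block turned 8 of 54 member values, which became Col1a1 -0.11, Col1a2 -0.080, Col3a1 -0.37, Lum -0.031 and Aldh1a2 -0.33 in 3xTg-S against WT-S, and Col1a2 -0.20, Col3a1 -0.28 and Lum -0.048 in the interaction.

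Leaving out 1 library at a time moved the genes called to 227 to 449 in 3xTg-8M against WT-8M (227 without 3xTg-8M replicate 1, 241 without 2), 125 to 200 in 3xTg-D against WT-D (125 without 3xTg-D replicate 2), 0 to 1 in 3xTg-S against 3xTg-D (1 without 3xTg-S replicate 3), 0 to 1 in WT-S against WT-D (1 without WT-S replicate 3), 155 to 341 in 3xTg-S against WT-D (155 without 3xTg-S replicate 1, 226 without 4) and 105 to 286 in 3xTg-S against WT-S (105 without 3xTg-S replicate 1, 114 without 4, 135 without WT-S replicate 3). Members called went from 0 to 1 in 3xTg-S against WT-D (Dcn without 3xTg-S replicate 3). The sign turned in 78 of 549 member values, none of them called. The ranges of the members concerned were, in 3xTg-8M against WT-8M, Aldh1a2 -0.49 to 0.57, Col1a1 -0.45 to 0.53, Col1a2 -0.061 to 1.02, Col3a1 -0.58 to 0.98, Dcn -0.22 to 0.24, Fmod -0.38 to 1.14, Ogn -0.48 to 0.075, Slc6a13 -1.17 to 0.20. They were, in 3xTg-D against WT-D, Col1a1 -0.48 to 0.16, Col1a2 -0.062 to 0.52, Col3a1 -0.23 to 0.64, Fmod -0.098 to 0.91, Lum -0.023 to 0.23, Slc6a13 -0.099 to 0.50. They were, in 3xTg-S against 3xTg-D, Aldh1a2 -0.26 to 0.53, Dcn -0.25 to 0.25, Fmod -0.27 to 0.58, Slc6a13 -0.19 to 0.63. They were, in 3xTg-S against WT-D, Fmod -0.020 to 1.13, Slc6a13 -0.053 to 0.81. They were, in 3xTg-S against WT-S, Aldh1a2 -0.38 to 0.66, Col1a1 -0.14 to 0.70, Col1a2 -0.11 to 0.81, Col3a1 -0.39 to 0.53, Dcn -0.32 to 0.14, Fmod -0.62 to 0.60, Lum -0.031 to 0.27, Ogn -0.44 to 0.26, Slc6a13 -0.68 to 0.35. They were, in WT-S against WT-D, Col1a1 -0.20 to 0.62, Col1a2 -0.0096 to 0.89, Fmod -0.12 to 1.27, Lum -0.018 to 0.30. They were, in the interaction of strain and inhibitor, Col1a2 -0.30 to 0.62, Col3a1 -0.52 to 0.48, Fmod -1.05 to 0.35, Lum -0.12 to 0.20, Ogn -0.58 to 0.12, Slc6a13 -0.82 to 0.22. No sign turned for Aldh1a2 in the 3 comparisons with WT-D or in the interaction.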
